A study of Homo sapiens with 2 samples.

Results

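The regions described here are 1716 peaks of the retinoblastoma protein Rb that were called in the prostate cancer cell line LNCaP and had no counterpart in the line VCaP. They were selected by rule from the authors' peak lists: LNCaP peaks on chromosomes 1 to 22 and X whose summit pileup was at least 20 tags and whose interval shared no base with any VCaP peak. The pileup is the number of sequenced tags, extended to the fragment length, that cover the highest point of a peak. Of 21955 LNCaP peaks on these chromosomes, 5331 had a pileup of at least 20. Of these, 1716 lacked a VCaP peak and 3615 were overlapped by one. The VCaP list holds 9393 peaks on these chromosomes, fewer than the LNCaP list. The lists of both lines hold 31417 peaks in all. Because pileup and overlap chose the members, both are given as description and carry no test.

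Rb is a tumour suppressor that binds E2F transcription factors at the promoters of cell cycle genes and holds their transcription down until cyclin-dependent kinases phosphorylate it. It also reaches chromatin at other sites, through other transcription factors and chromatin-modifying complexes. In prostate cancer, loss of Rb is known from advanced tumours that no longer depend on the androgen receptor. LNCaP was established from a lymph node metastasis and carries a mutated androgen receptor, and VCaP was established from a vertebral metastasis and carries the TMPRSS2-ERG gene fusion.

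Rb binding was measured by chromatin immunoprecipitation and sequencing with a mouse monoclonal antibody, in 1 library of LNCaP and 1 of VCaP. Both lines had been starved of steroid hormones for 3 days by growth in 5% charcoal-treated serum, and were then exposed for 4 h to the androgen dihydrotestosterone (DHT) at 10 nM. The LNCaP library had 3671482 tags after filtering and the VCaP library 8691938. With 1 library per line the spread between cultures is not known, and no difference below is tested between the lines. Intervals in brackets are exact 95% binomial intervals. They cover counting error only, and neighbouring peaks are not independent.

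Lack of a VCaP peak was less frequent at higher LNCaP pileups. Over all LNCaP peaks 69.8% had no VCaP counterpart. The share was 81.8% among those under 20 tags and 32.2% (30.9 to 33.5) among those with at least 20. The share was 46.8% (790 of 1689) at 20 to 22 tags and 36.3% (405 of 1115) at 23 to 25 tags. It was 29.4% (288 of 980) at 26 to 29 tags, 19.1% (198 of 1037) at 30 to 39 tags and 6.86% (35 of 510) at 40 tags or more. Most members therefore had pileups near the limit: their median was 23 tags (quartiles 21 and 26), against 27 (23 and 33) for overlapped peaks over the same limit. Of the 100 LNCaP peaks of highest pileup, 1 was a member. In the reverse direction, 264 of 1592 VCaP peaks with at least 20 tags (16.6%) had no LNCaP peak, against 28.8% of all VCaP peaks; 20 tags are a smaller part of the deeper VCaP library.

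Values on either side of the limit were close. At 20 tags, 326 of 634 LNCaP peaks lacked a VCaP peak, or 51.4% (47.5 to 55.4). One tag lower, 372 of 655 did, or 56.8% (52.9 to 60.6). The median fold enrichment of these peaks was 7.26 at 20 tags and 7.004 at 19 tags. Fold enrichment is the authors' ratio of the pileup to the local background of the same library. Just inside the limit, the peaks of highest fold were chr5:127537002-127537386 (13.1), chr16:58270232-58270594 (12.7), chr1:142890780-142891184 (12.4), chrX:100352865-100353300 (12.2) and chr12:29533608-29534163 (11.7). Just outside, with 19 tags, were chrX:101771245-101771755 (11.9), chr2:177134005-177134411 (11.8), chr15:56657400-56657824 (11.8), chr4:13655821-13656298 (11.6) and chr10:47151169-47151517 (11.4).

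**Figure D1:**
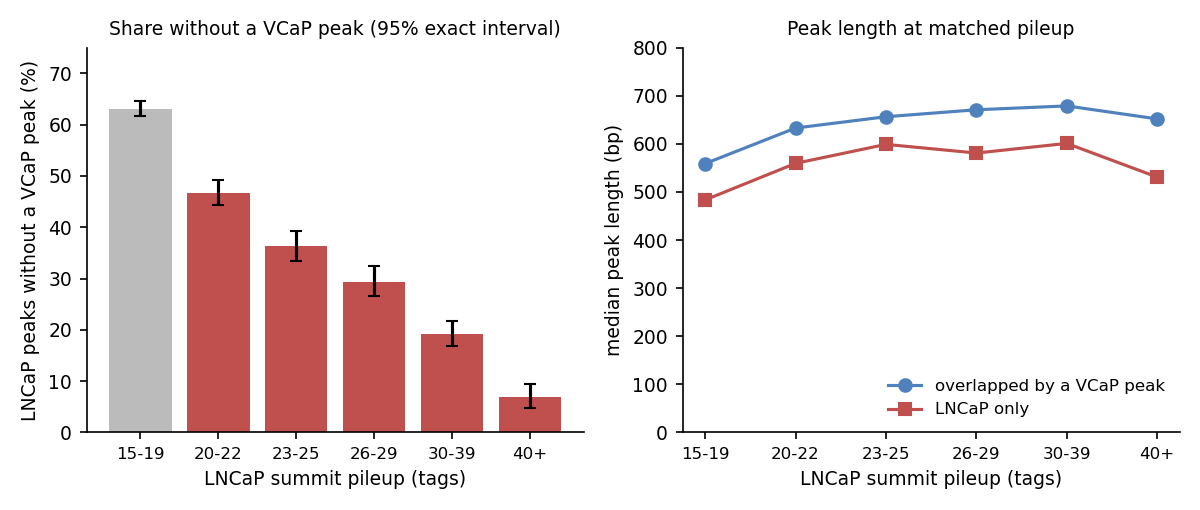
Left, share of LNCaP peaks without a VCaP peak (percent, exact 95% intervals) by summit pileup in tags; the grey bar lies under the limit of 20 tags. Right, median length in bp of LNCaP-only and overlapped peaks in the same pileup classes; the share is 46.8% at 20 to 22 tags and 6.86% at 40 or more, and LNCaP-only peaks are the shorter in every class.

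A pileup of 20 tags is 5.45 tags per 1000000 in the LNCaP library and would correspond to 47.4 tags at the depth of VCaP. VCaP peaks were called from far lower pileups. Where the local background was under 1 tag per fragment length, the lowest pileup called in VCaP was 6 tags, and at a background of 2 to 3 tags it was 10. At a background of 5 tags or more it was 20. At the 3615 overlapped LNCaP peaks, the VCaP partner had a median of 16 tags (quartiles 13 and 21). Per 1000000 tags of its library, the partner's pileup was a median of 0.249 times that of LNCaP (quartiles 0.2011 and 0.3087). These overlapped peaks had to reach a limit in LNCaP and none in VCaP, so a low ratio follows in part from how they were chosen. The partner had a −log10 q under 5 in 939 cases (25.98%). That share was 38.7% (348 of 899) for LNCaP pileups of 20 to 22 tags and 4.00% (19 of 475) for 40 tags or more. The tags of VCaP at the members were not analysed here. Whether members had tags in VCaP that did not reach a call was therefore not tested.

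Members were shorter and less enriched than overlapped peaks of the same library, also at matched pileup. Their median length was 577 bp (quartiles 437 and 747), against 657 bp (514 and 814) for overlapped peaks. At 20 to 22 tags the medians were 559.5 and 633 bp, and at 30 to 39 tags 601 and 679 bp. Median fold enrichment was 7.96 (6.45 and 9.42) in members and 9.06 (7.60 and 10.8) in overlapped peaks. At 20 to 22 tags it was 7.30 against 7.79, and at 30 to 39 tags 9.32 against 10.3. At 40 tags or more it was 10.2 against 12.9, but that class has no upper limit, so pileups are not matched in it. A fold of at least 10 was reached by 312 members (18.2%, 16.4 to 20.1) and by 1296 overlapped peaks (35.9%, 34.3 to 37.4). A fold under 5 was found in 117 members (6.82%, 5.67 to 8.12) and 79 overlapped peaks (2.19%, 1.73 to 2.72). The lengths and folds come from the library that chose the members, so they describe these lists. A longer peak is likelier to share a base with a VCaP peak, so the rule itself favours shorter members at any pileup.

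In length and local background the medians of members lay closer to overlapped peaks than to the 13605 LNCaP-only peaks of lower pileup. Those had a median length of 304 bp, and 26.9% of them were exactly as long as the fragment length of 241 bp, the shortest length in the list. Of the members, 7 (0.408%) had that length, and 89 (5.19%) were 1 kb or longer. The local background, expressed as tags in the 10 kb window around a peak, had a median of 88 tags in members and 90 in overlapped peaks over the limit, against 34 in LNCaP-only peaks under it. The tags under a peak count towards its own window. Pileup and length are linked within a library, so that the contrast with lower peaks follows in part from the limit.

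Most members lay between 10 kb and 1 Mb from any VCaP peak. The median distance from a member's summit to the nearest VCaP summit was 63649 bp (quartiles 18924 and 164999). It was under 1 kb for 93 members (5.42%), 1 to 10 kb for 197 (11.5%), 10 to 100 kb for 780 (45.5%), 100 kb to 1 Mb for 590 (34.4%) and over 1 Mb for 56 (3.26%). For LNCaP-only peaks of lower pileup the median was 80758 bp, with 4.19% under 1 kb, 7.33% at 1 to 10 kb, 44.1% at 10 to 100 kb, 40.1% at 100 kb to 1 Mb and 4.36% over 1 Mb. Members had the larger share at 1 to 10 kb (10.0 to 13.1%, against 6.90 to 7.78%) and under 1 kb (4.40 to 6.60%, against 3.86 to 4.54%, with overlapping intervals). They had the smaller share at 100 kb to 1 Mb (32.1 to 36.7%, against 39.2 to 40.9%).

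**Figure D2:**
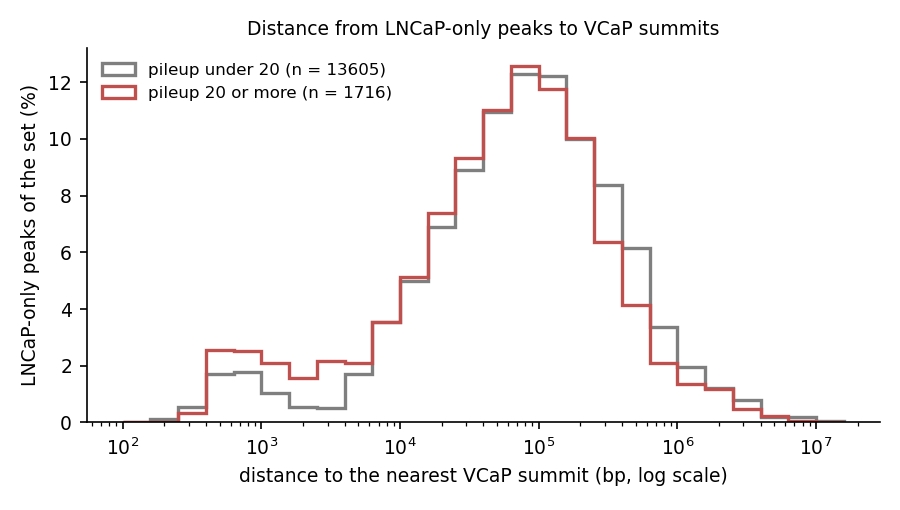
Distance in bp (log scale) from the summit of LNCaP-only peaks to the nearest VCaP summit, as percent of each set, for members (pileup of 20 or more) and for LNCaP-only peaks of lower pileup. Both distributions peak between 10 kb and 1 Mb, and 56 members lie more than 1 Mb from any VCaP summit.

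Members close to a VCaP peak were less enriched than distant ones. The 93 members with a VCaP summit within 1 kb had a median fold of 6.02 and a length of 419 bp. The 197 at 1 to 10 kb had 6.30 and 453 bp, and the 780 at 10 to 100 kb had 8.03 and 590 bp. Beyond 1 Mb the medians were 9.18 and 667 bp. Median pileups were 22 to 24 tags in all 5 distance classes, so that the order in fold lay in the local background. The nearest misses were a matter of bases. On chr5:179718819-179719211 a gap of 11 bp separated a member of 25 tags from a VCaP peak of 16 tags. At chr8:146012308-146012786 the gap was 13 bp, with 20 tags in the member and 9 in VCaP. At chr11:65628184-65628446 it was 17 bp, with 23 and 37 tags.

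Most members had no other member close by, but many had another LNCaP peak near. The members fell into 1282 intervals between neighbouring VCaP peaks (or between the outermost VCaP peak and the end of a chromosome), and 1010 of these intervals held exactly 1 member. Another member lay within 10 kb of 168 members (9.79%), and the median gap to the next member was 223.6 kb. Any other LNCaP peak lay within 10 kb of 661 members (38.5%) and within 1 kb of 349 (20.3%), with a median gap of 17.3 kb. An LNCaP peak that is overlapped in VCaP lay within 10 kb of 224 members (13.1%) and within 1 kb of 95 (5.54%), with a median gap of 80.1 kb.

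Chromosome 16 had the highest share of strong LNCaP peaks without a VCaP counterpart. There, 145 of 245 LNCaP peaks of at least 20 tags were members, or 59.2% (52.7 to 65.4). This chromosome was singled out because earlier results of these data pointed to it. On the other chromosomes together the share was 30.9% (1571 of 5086, 29.6 to 32.2), and singly it ranged from 21.6% on chromosome 22 to 42.9% on chromosome 10. Chromosome 16 as a whole had 828 LNCaP and 184 VCaP peaks. Of its LNCaP peaks under 20 tags, 91.4% lacked a VCaP peak, against 81.8% over all chromosomes of the rule and 91.8% on chromosome 18. The lack of VCaP peaks on chromosome 16 was thus not confined to strong LNCaP peaks. Chromosome 16 carried 8.45% of members (7.18 to 9.87) and 2.77% of overlapped peaks (2.26 to 3.35), a ratio of 3.05. The share of members also exceeded that of overlapped peaks, with intervals apart, on chromosomes 6 (97 members, ratio 1.503), 10 (102 members, 1.58) and 14 (83 members, 1.49). On chromosome 7, with 70 members, it was lower (ratio 0.676). On the other 18 chromosomes the intervals overlapped, including chromosome 1, which had the most members (206), chromosome 19 (115) and chromosome 17 (105). The fewest members were on chromosome X (11), chromosome 21 (16) and chromosome 13 (18).

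**Figure D3:**
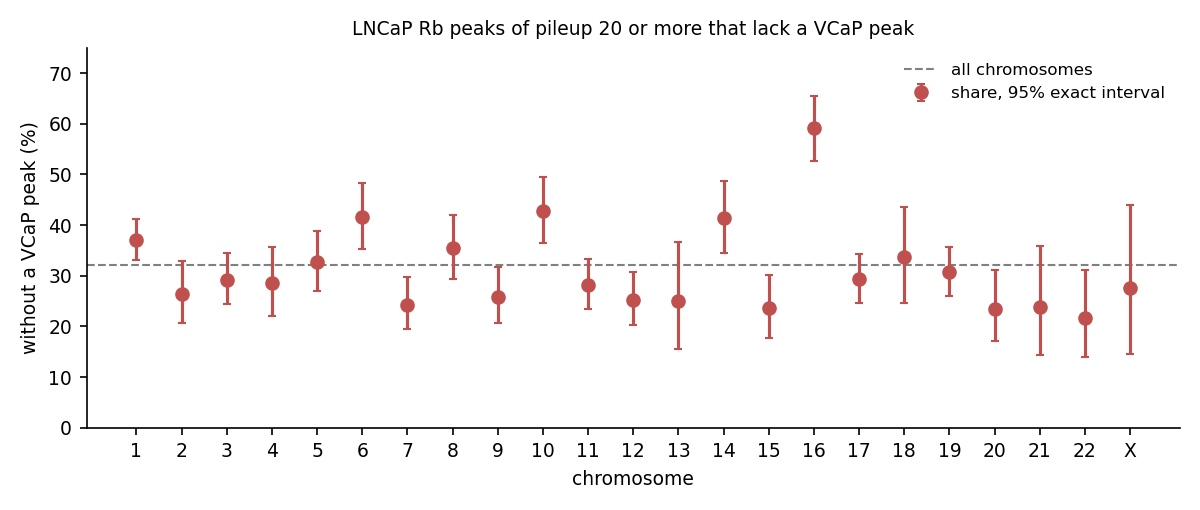
Percent of LNCaP Rb peaks of at least 20 tags that lack a VCaP peak, by chromosome, with exact 95% intervals; the dashed line is the share over all chromosomes, 32.2%. Chromosome 16 stands at 59.2%, and the others range from 21.6% to 42.9%.

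The share on chromosome 16 was the higher in every pileup class, with intervals apart up to 29 tags. At 20 to 22 tags 59 of 78 chromosome 16 peaks were members (75.6%, 64.6 to 84.7), against 45.2% of peaks outside chromosome 16 and the first 20 Mb of chromosome 6. At 23 to 25 tags it was 45 of 64 (70.3%) against 33.9%, and at 26 to 29 tags 27 of 44 (61.4%) against 27.6%. At 30 to 39 tags 12 of 35 were members (34.3%, 19.1 to 52.2) against 18.3% (15.97 to 20.9), and at 40 tags or more 2 of 24 (8.33%) against 6.40%, with overlapping intervals in the last class and in the one before. Window tags at called peaks also differed between chromosomes. The median 10 kb window of LNCaP peaks held 18.8 tags per 1000000 on chromosome 16, against 8.72 to 20.2 on the other chromosomes. That of VCaP peaks held 5.24, under the 5.41 to 10.6 of all others. The log2 ratio of VCaP over LNCaP medians was -1.84 on chromosome 16 and between -1.41 and -0.36 elsewhere. Over the 23 chromosomes, which share the libraries, this ratio and the share of members had a Spearman's rho of -0.14. These medians come from each line's own called peaks, and each window includes the tags of its peak. They do not measure the background at the members. The part of background tags in the result was not tested.

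The share of members varied along chromosome 16. Of 58 LNCaP peaks over the limit from 0 to 10 Mb, 31 were members (53.4%), and from 80 to 90 Mb 26 of 32 (81.2%, 63.6 to 92.8). From 60 to 70 Mb it was 21 of 32 (65.6%), and from 30 to 40 Mb 21 of 33 (63.6%). Lower shares were found from 10 to 20 Mb (46.2%), from 20 to 30 Mb (44.8%) and from 70 to 80 Mb, where 7 of 18 peaks were members (38.9%, 17.3 to 64.2). Between VCaP peaks, an interval of 1.25 Mb at chr16:67918906-69166359 held 9 members among 22 LNCaP peaks. An interval of 1.01 Mb at chr16:88870358-89882975 held 8 members among 19. The highest members of the chromosome by pileup were chr16:32199299-32199755 (47 tags, fold 17.1), chr16:33953106-33953521 (45 tags, 6.21), chr16:90038851-90039488 (36 tags, 10.5) and chr16:75466768-75467453 (35 tags, 11.5). Outside chromosome 16, the 10 Mb stretches richest in members were the first and second of chromosome 19 (51 of 103 and 32 of 105 peaks over the limit) and the first of chromosome 17 (26 of 67).

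The first 20 Mb of chromosome 6 had few VCaP peaks and nearly all of its strong LNCaP peaks were members. The VCaP list held 15 peaks there and the LNCaP list 139, of which 25 had at least 20 tags. Members were 22 of these 25 (88.0%, 68.8 to 97.5), against 75 of 208 (36.1%) on the remainder of the chromosome. The 22 had a median pileup of 24.5 tags and folds from 6.15 to 16.4. Between VCaP peaks, an interval of 7.98 Mb at chr6:3064205-11043821 held 10 members among 62 LNCaP peaks, the most of any such interval. The next, of 8.40 Mb at chr6:11439529-19837551, held 9 among 46. Window tags at called peaks differed from those on chromosome 16: the median window held 18.3 tags per 1000000 at the 15 VCaP peaks and 12.8 at the LNCaP peaks. Their part in the result was not tested. This stretch was singled out after its values were seen. Of 199 stretches of 10 Mb with at least 10 LNCaP peaks over the limit, members were 60% or more in 15 and under 10% in 12, with a median of 30.8%.

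Among the 20 members of highest pileup, 9 lay in windows crowded with tags and the other 11 did not. A window of at least 250 tags per 10 kb was found at these 9 (45.0%, 23.1 to 68.5), but at 26 of all members (1.52%) and 26 of the 3615 overlapped peaks (0.719%). The highest member was chr17:21906085-21906827, with 101 tags, a fold of 11.4 and 330 tags in its window. It lay within 1 Mb of a stretch of at least 2.5 Mb without peaks in either list, as did chr16:33953106-33953521 and both members on chr1:143278632-143278978 (51 tags, fold 6.37) and chr1:143280318-143280624 (49 tags, 6.32). Over all members 53 lay that close to one (3.09%, 2.32 to 4.02), and 88 overlapped peaks did (2.43%, 1.96 to 2.99).

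A further crowded site was on chromosome 2. Between VCaP peaks 18.7 kb apart, at chr2:133020266-133038972, all 6 LNCaP peaks were members. Their pileups were 41, 57, 46, 46, 38 and 30 tags in order along the chromosome, and their folds only 4.62, 5.59, 3.52, 3.33, 2.95 and 2.72. The last is the lowest fold of any member. Their windows held 336 to 544 tags. The remaining crowded members of the highest 20 were chr9:68412996-68413788 (54 tags, fold 6.99) and chr7:26240295-26240694 (50 tags, 7.26), whose nearest VCaP summits were 8.20 and 0.588 kb away. The peaks were called without a control library. Rb binding therefore cannot be told apart from background signal, at crowded sites or at other members.

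**Figure D4:**
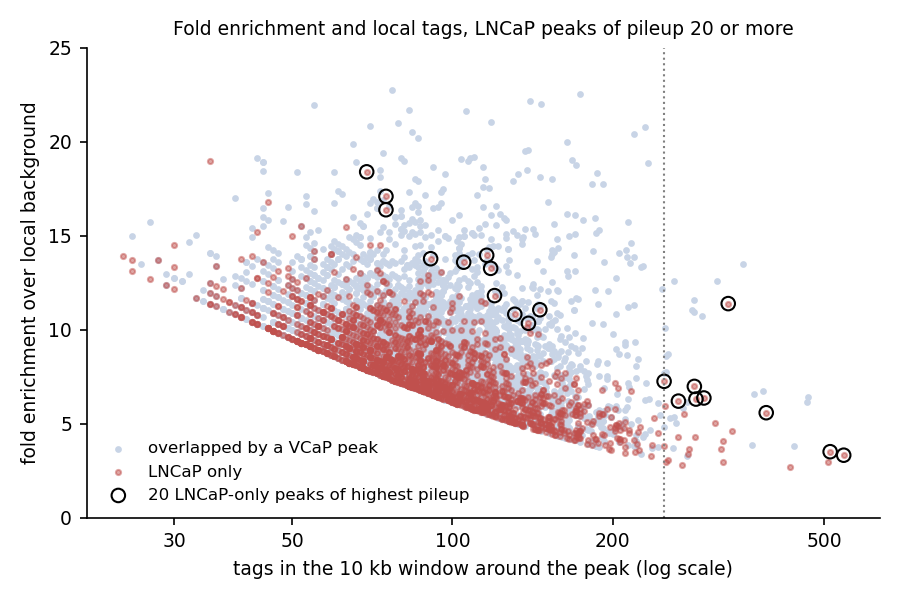
Fold enrichment against tags in the 10 kb window (log scale) for LNCaP peaks of at least 20 tags: members in red, peaks overlapped in VCaP in pale blue, and the 20 members of highest pileup circled. The dotted line marks 250 tags; 9 of the circled peaks lie at or beyond it, with folds from 3.33 to 11.4, and the other 11 have folds from 10.4 to 18.4.

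The other 11 of the 20 combined a high pileup with a high fold over an ordinary background. The first were chr20:656103-656601, with 52 tags and a fold of 13.96, and chr7:21985114-21986013, with 50 tags and 13.3. Then followed chr19:591491-591915 (49 tags, 11.1), chr8:12458771-12459197 (48 tags, 18.4), chr16:32199299-32199755 (47 tags, 17.1) and chr11:58673294-58673705 (47 tags, 13.6). The member at chr6:10404357-10405235 had 45 tags over 879 bp, a fold of 16.4, and lay 639 kb from the nearest VCaP summit. The last 4 were chr8:54790370-54790768 (45 tags, 11.8), chr11:68228197-68228706 (44 tags, 10.8), chr1:228290713-228291405 (44 tags, 10.4) and chr10:95255982-95256588 (43 tags, 13.8). The windows of these 11 held 69 to 146 tags, against a median of 88 (quartiles 69 and 116) over all members. Their distances to VCaP summits ran from 19.1 to 639 kb.

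Ranking by fold in place of pileup picked other sites. Of the 10 members of highest fold, 3 were also among the 20 of highest pileup, on chromosomes 8, 16 and 6. The member of highest fold, chr14:83108722-83109105, had 18.99 with 34 tags, in a window of 35 tags, so that nearly all tags of its window lay under the peak. Of the others, chr13:46785774-46786261 had a fold of 16.8 with 34 tags and chr20:10200019-10200440 15.5 with 34 tags. On chromosome 1, chr1:43282760-43283180 had 15.5 with 38 tags, chr1:172412812-172413393 15.2 with 30 tags and chr1:76190163-76190713 14.5 with 38 tags. The member chr7:11013190-11013635 had 14.97 with 32 tags. The windows of these 7 held 35 to 70 tags, and none lay within 1 Mb of a long stretch without peaks.

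The members farthest from VCaP peaks were on chromosomes X, 6 and 4. The summit of chrX:115004658-115005223 (29 tags, fold 11.2) was 6707 kb from the nearest VCaP summit. Next came chrX:101186549-101187369 (22 tags, 10.7) at 5056 kb, chrX:100645663-100646090 (21 tags, 11.5) at 4706 kb and chrX:100352865-100353300 (20 tags, 12.2) at 4413 kb. All of these but chrX:101186549-101187369 lay within 1 Mb of a stretch of at least 2.5 Mb without peaks in either list. On chromosome 6, chr6:15662893-15663444 (28 tags, 11.7) lay 4174 kb away, and 4 members from chr6:7910129-7910423 to chr6:8102479-8103025 lay 2941 to 3134 kb away. The member chr4:133265532-133265915 (23 tags, 11.2) was at 3535 kb. Chromosome X had 462 LNCaP and 125 VCaP peaks, and its 11 members had a median distance of 688 kb to a VCaP summit, the longest of the 23 chromosomes. The median was 24.9 kb on chromosome 17 and 28.5 kb on chromosome 19.

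The longest members were broad sites of moderate fold. They were chr6:111803453-111805307 (1855 bp, 35 tags, fold 7.56), chr9:74979450-74980924 (1475 bp, 21 tags, 6.64), chr18:45456545-45457994 (1450 bp, 30 tags, 7.05), chr9:85676860-85678271 (1412 bp, 26 tags, 7.70) and chr1:245133083-245134488 (1406 bp, 36 tags, 8.14). Each of these 5 summits lay 84.0 kb or more from the nearest VCaP summit. A summit more than 25% of the peak's length away from its centre was found in 10.96% of members (9.52 to 12.5) and 11.2% of overlapped peaks (10.2 to 12.3), with overlapping intervals.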

How the data were processed

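Rb ChIP-seq peaks of 1 LNCaP and 1 VCaP library were analysed, grouped by the label for the line. Peak calling by the authors was run per library with MACS 2.1.0.20140616 and no control at a q-value limit of 0.05, per the file headers, with 75 bp tags, 1 tag kept per position and fragment lengths of 241 bp (LNCaP) and 225 bp (VCaP). The submitters' processing notes name hg19, MACS2 and HOMER; the aligner is not given in the sources used here. The deposited pileup is an unscaled coverage signal, the deposited fold enrichment a ratio to the local background, and the deposited −log10 q the caller's own value. Peak length in bp is deposited too.

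Here, overlap meant at least 1 shared bp and was checked against bedtools 2.31.1 and tested on simulated data. Window tags were computed back from pileup and fold as (pileup + 1)/fold − 1, scaled to 10000 bp; they came out whole within 0.05 tags for 100% of members. Per 1000000 tags means tags of the library after filtering. Python 3.11.15, pandas 2.3.3 and scipy 1.17.1 were used. The peaks named were the 20 members of highest pileup, the 10 of highest fold, the 10 farthest from VCaP summits, the 5 longest, 5 on each side of the pileup limit and the 5 stretches of 10 Mb with most members. Other named intervals, the 250-tag windows, the long stretches without peaks and the nearest misses were picked after their values were seen. The members and lists were chosen with earlier results of these data known. The gene tables used are of build GRCh38, so genes, transcription starts and sequence at these hg19 positions were not analysed here.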

Additional observations from a re-analysis of the deposited data

Results flagged for a closer look

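Outside the chromosomes of the rule, the LNCaP list had 12 peaks of at least 20 tags on chromosome Y, and all 12 lacked an overlapping VCaP peak. They are given because they lie in data that no comparison above uses. These 12 were all the LNCaP peaks of chromosome Y over the limit. On the chromosomes of the rule, 32.2% of LNCaP peaks of at least 20 tags lacked a VCaP peak. As neither line has replicate libraries, the 12 peaks say nothing on a difference between the lines. Their pileups ran from 22 to 59 tags. The lists had 35 (LNCaP) and 27 (VCaP) peaks on this chromosome, with up to 83 tags in VCaP. On mitochondrial sequence, 2 of 4 LNCaP peaks over the limit lacked a VCaP peak.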

How the results depend on the processing

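No paired analysis was possible because each line has 1 library. The number of members (1716) follows from the limit: it was 4290, 658, 233 and 35 with at least 15, 25, 30 and 40 tags, and 312 with a fold of at least 10. It was 2655 when only VCaP peaks with −log10 q of at least 5 counted, and 3022 when overlap needed 50% of both peaks. The share without a VCaP peak (32.2%) was 45.6%, 22.8%, 15.1% and 6.86% at those 4 pileup limits. It was 29.99% with no VCaP peak within 1 kb, 49.8% with the stricter VCaP list, 56.7% with 50% overlap and 30.9% without chromosome 16. Median length (577 bp) was 517, 597, 598 and 531 bp at the 4 limits. Median distance (63649 bp) was 41.4 kb at 40 tags or more and 114.1 kb to the stricter VCaP summits. The share of members on chromosome 16 (8.45%) was 7.13%, 6.01% and 5.71% with at least 15, 30 and 40 tags. These are 24 of 39 alternative values; the other 15 stayed within 1.5 times a count or within the interval of the value. Leaving out crowded windows and the borders of long stretches without peaks, an alternative added after seeing the data, as was leaving out chromosome 16, gave 1646 members, 31.9% and 8.26%. In the alternatives run, the chromosome 16 share without a VCaP peak exceeded that of the other chromosomes, by little at 40 tags or more (8.33% against 6.79%). A change of limit or list alters which peaks enter; no other cause was tested. The alternatives on transcription starts and motifs were not run, for want of sequence of the build. Absence from the VCaP list means only that no peak was called there. VCaP had the deeper library but the shorter list, with 9393 peaks on the chromosomes of the rule against 21955 in LNCaP.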
